A study of Mus musculus with 2 samples.

Results

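The Dlk1 to Meg3 domain was taken as the stretch of mouse chromosome 12 from upstream of Dlk1 to beyond Mirg, and its members as every CpG cytosine there with at least 5 reads in both liver libraries. The first member lies at 109440502 and the last at 109755190 (mm10). There were 450 members at 337 CpGs, of 2521919 such cytosines in the series, with 216 on the plus strand and 234 on the minus strand. The stretch holds 5 named imprinted genes, Dlk1, Meg3, Rtl1, Rian and Mirg. The compared groups were liver of 12-week-old CD-1 mice after 12 hr without food (fasted) and liver of untreated 12-week-old CD-1 mice (control). CD-1 is an outbred stock, and the labels did not state the sex or whether a library came from 1 mouse or several. Each group had 1 library, made by bisulfite sequencing of restriction fragments, in which a methylated cytosine stays unconverted. No spread between animals could be estimated, so each test on reads compared these 2 libraries and not the conditions.

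Imprinted genes are expressed mainly from the copy inherited from a given parent. In this domain Dlk1 and Rtl1 are known to be active on the paternal copy, and the noncoding RNAs Meg3, Rian and Mirg on the maternal copy. The domain is controlled by an intergenic region between Dlk1 and Meg3 that carries DNA methylation on the paternal copy, and the start of Meg3 is methylated on the paternal copy as well. In the liver, Dlk1 is known as a marker of fetal hepatoblasts. The files hold read counts per cytosine and no pattern per read, so an intermediate level from methylation of the paternal copy and one from a mix of cells cannot be told apart. No annotation used here marks the intergenic control region.

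The fasted library had 51276705 reads over cytosines and the control library 49253627, each read being counted at every cytosine it spans. The members had a median depth of 12 reads in the fasted library and 11 in the control library, against 15 in the fasted and 14 in the control library over all 2466496 autosomal cytosines measured the same way. At least 10 reads in both libraries covered 246 members, and at least 20 covered 49. Since PCR copies carry no molecular identifier and are not independent, all intervals, at 95%, cover counting error only. Neighbouring cytosines also share reads, so the intervals of mean differences over several cytosines are too narrow even for counting error.

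Across the domain the mean level was close in the libraries, at 66.0% in fasted and 66.3% in control liver. The mean difference over the 450 cytosines was -0.34 percentage points (interval -1.77 to 1.09), with 167 cytosines higher in fasted liver, 171 lower and 112 equal. On the plus strand the mean was 68.0% in fasted and 69.4% in control liver. On the minus strand it was 64.2% in fasted and 63.5% in control liver. The domain was more methylated than the autosomes as a whole, which averaged 45.2% in fasted and 45% in control liver. At least 80% methylation in both libraries was found at 193 members (42.9%), against 30.4% of autosomal cytosines. At most 10% in both was found at 59 members (13.1%), against 39.7% of autosomal cytosines. An intermediate level, 30 to 70% in both libraries, was found at 50 members (11.1%), against 6.02% of autosomal cytosines.

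**Figure D1:**
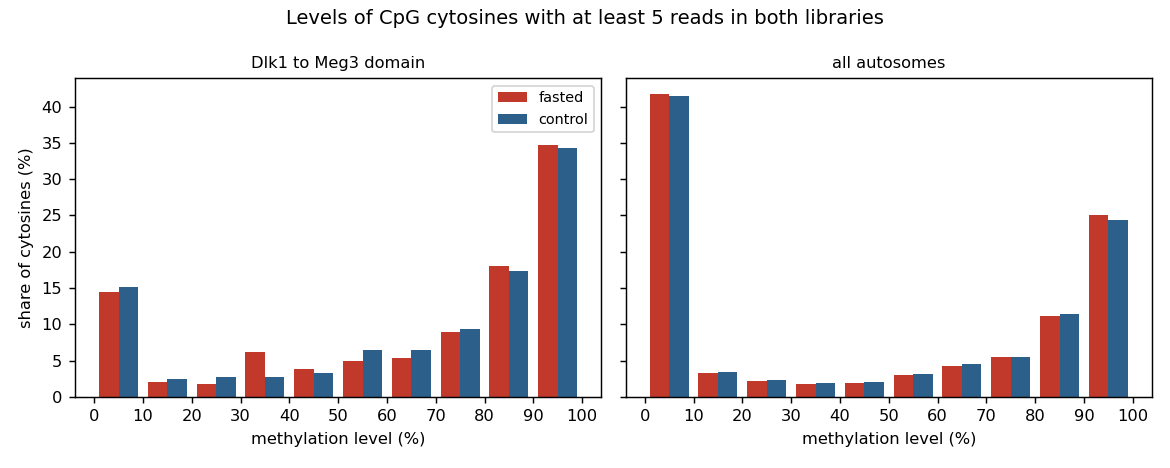
Share of cytosines (percent, vertical axis) in each class of methylation level (percent, horizontal axis) for the domain and for all autosomes, fasted and control libraries. The lowest class held 14.4% of members in the fasted and 15.1% in the control library, against 41.8% of autosomal cytosines in the fasted and 41.5% in the control library. The highest class held 34.7% of members in the fasted and 34.2% in the control library.

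**Figure D2:**
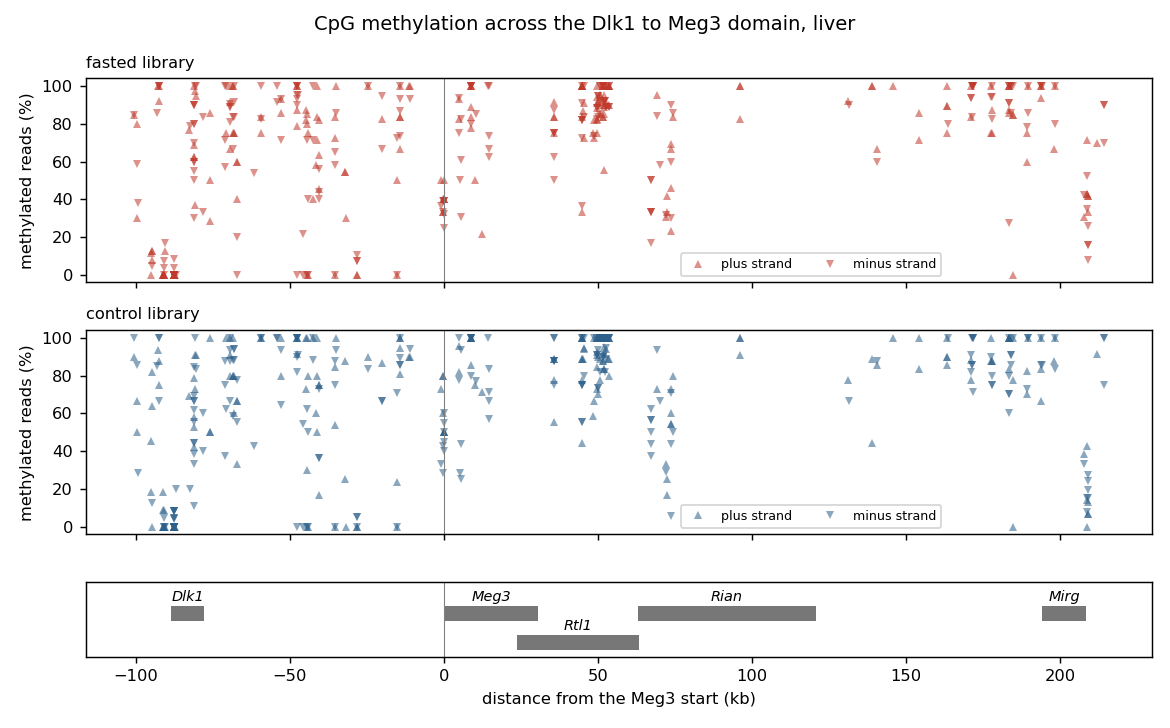
Methylation level (percent, vertical axis) of each member cytosine by its distance from the annotated Meg3 start (kb, horizontal axis) in the fasted (top) and control library, triangles giving the strand and bars the gene extents. Levels near 0 lie around Dlk1, intermediate levels at the Meg3 start and parts of the stretch before it, and mostly high levels across Rtl1 and between Rian and Mirg.

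The start of Meg3, a noncoding RNA, had intermediate methylation, lower in fasted than in control liver. This stretch, from 2000 bp before the annotated start to 4000 bp after it (chr12:109538996-109544995), held 16 cytosines at 11 CpGs. It averaged 38.1% in fasted and 53.0% in control liver, a difference of -14.8 points (interval -24.0 to -5.64). The level was lower in fasted liver at 13 cytosines, higher at 2 and equal at 1. On the plus strand the 8 cytosines averaged 40.8% in fasted and 61.6% in control liver, a difference of -20.8 points (interval -35.1 to -6.39). On the minus strand the 8 cytosines averaged 35.4% in fasted and 44.3% in control liver, a difference of -8.90 points whose interval (-20.3 to 2.54) included 0. Both libraries were at 30 to 70% at 11 of the 16 cytosines. The levels spanned 25 to 50% in fasted and 28.6 to 80% in control liver.

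The RefSeq promoter of Meg3 (GRCm38.p6, the build of mm10, chr12:109540746-109541045, plus strand) is shown because it holds 9 of these 16 cytosines. Capitals mark the 5 CpGs measured on at least 1 strand, and the table places the start of transcription after the first 250 bases.
Meg3 promoter: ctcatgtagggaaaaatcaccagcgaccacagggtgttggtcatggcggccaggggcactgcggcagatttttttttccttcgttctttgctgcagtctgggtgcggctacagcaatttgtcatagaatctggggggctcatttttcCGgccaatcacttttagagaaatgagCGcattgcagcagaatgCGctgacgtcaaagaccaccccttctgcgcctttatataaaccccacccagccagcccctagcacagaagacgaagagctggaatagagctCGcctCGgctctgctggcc
The sequence holds 13 CG pairs, and 37.9% of the 32851 promoters in the table hold as many or more. The 9 measured cytosines averaged 40% in fasted and 51.7% in control liver. The letters TGACGTCA, which read the same on both strands and contain a CG pair, occur from 57 to 50 bp before the start. The same letters occur in 588 promoters of the table (1.79%). No cytosine within them was measured.

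Single cytosines showed how the difference was spread over the Meg3 start. At 359 bp before the start on the plus strand, 6 of 18 reads were methylated in fasted and 16 of 20 in control liver. The minus strand of the same CpG had 12 of 36 methylated reads in fasted and 4 of 14 in control liver. The plus strand of this CpG was thus 46.6667 points lower in fasted liver, while its minus strand was close in the libraries, at 4.76 points higher. At 405 bp before the start on the plus strand, 3 of 9 reads were methylated in fasted and 8 of 10 in control liver. Both plus strand cytosines thus had the same level in each library, 33.3% in fasted and 80% in control liver. Whether the same fragments were read at both, and counted repeatedly at 359 bp, was not tested, so they may not be separate evidence. Inside the promoter, the plus strand CpG 103 bp before the start had 4 of 10 methylated reads in fasted and 6 of 10 in control liver. Its neighbour 77 bp before the start had 5 of 10 in each library, and the minus strand of that neighbour had 11 of 28 in fasted and 12 of 20 in control liver. On the plus strand the promoter cytosines differed by at most 2 methylated reads of 10. At 75 bp after the start, on the minus strand, 7 of 28 reads were methylated in fasted and 9 of 20 in control liver. The 16 cytosines showed only 8 distinct pairs of read depth, and 5 minus strand cytosines shared 28 fasted and 20 control reads, so neighbouring values largely came from the same reads.

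**Figure D3:**
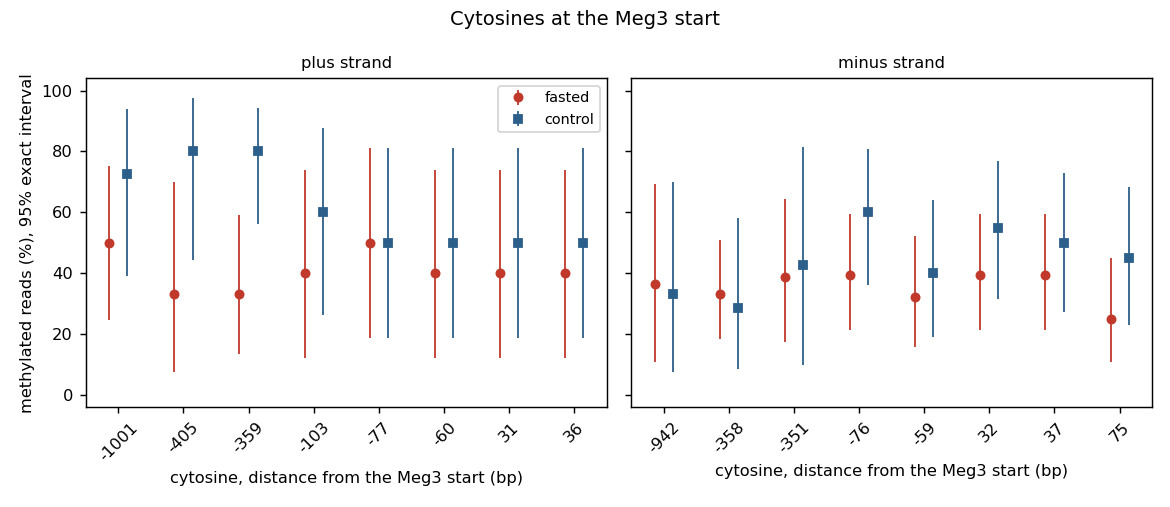
Methylation level (percent, vertical axis) of each cytosine at the Meg3 start by distance from the start (bp, horizontal axis) on the plus and minus strands, with exact 95% intervals, fasted and control libraries. At 359 bp before the start the plus strand was at 33.3% in fasted and 80% in control liver, and the intervals of the libraries overlap at each cytosine.

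No cytosine of the Meg3 start was called. For single cytosines a call needed an adjusted p under 0.05 by Fisher's exact test (two-sided, methylated and unmethylated reads, Benjamini-Hochberg adjusted over all autosomal cytosines) and a difference of at least 25 points. None of the 450 members met this, where the background was 0.0548% of autosomal cytosines. At an unadjusted p under 0.05 there were 14 members (3.11%), against 1.85% of autosomal cytosines. A full switch at the median depth of 12 and 11 reads gives an unadjusted p of 7.40e-07 by Fisher's exact test, below the largest p that passed the adjustment, 2.98e-05. In simulated data over the autosomes, this test recovered 66.5% of changes of 100 points and 4% of changes of 50 points. Changes of 50 points at single cytosines were thus mostly missed in the simulated data. These held 200 changed cytosines at the depths of the autosomes, and adjusted p depends on how many features change. In the real data 1352 autosomal cytosines were called, so the rates are not those of the test at the members.

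Windows of 1000 bp with at least 3 cytosines were called at an adjusted p under 0.05 on summed reads and at least 10 points between mean levels. In the domain 1 of 56 windows was called (1.79%), lower in fasted liver, where the background was 1.43% of autosomal windows (0.759% higher and 0.676% lower), a share near the background. At least 10 points, with no test, separated the libraries in 14 windows (25%), against 17.4% of autosomal windows. The window that ends just past the first base of Meg3 averaged 37.7% in fasted and 52.5% in control liver and was not called (Fisher's exact test, adjusted p = 0.114). With all windows moved by 500 bp, the 14 cytosines around the start fell into 1 window with 98 of 271 methylated reads in fasted and 107 of 201 in control liver. That window passed (-15.5 points, Fisher's exact test, adjusted p = 0.0195), with a background of 1.41% for these windows. By Fisher's exact test it no longer passed when every read count was halved as well (adjusted p = 0.883) or when summed reads were divided by how many cytosines they covered (adjusted p = 1).

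The stretch between Dlk1 and Meg3 showed little net difference. It ran from the end of Dlk1 to 2000 bp before Meg3 (chr12:109463337-109538995) and held 115 cytosines at 84 CpGs. Its mean was 67.4% in fasted and 68.6% in control liver, a difference of -1.28 points (interval -4.12 to 1.56), with 44 cytosines higher, 46 lower and 25 equal. On the plus strand the 57 cytosines averaged 68.4% in fasted and 69.4% in control liver. On the minus strand the 58 cytosines averaged 66.3% in fasted and 67.9% in control liver. Levels varied widely along the stretch, with 51 cytosines at 80% or more in both libraries, 14 at 10% or less in both and 12 at 30 to 70% in both.

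Runs of cytosines with gaps of at most 500 bp, counted where they held at least 3 cytosines, gave 19 clusters in this stretch. By mean level, 7 of these were at 80% or more in both libraries, 6 at 30 to 70% in both and 1 at 10% or less in both. Nearest to Dlk1, a cluster of 3 cytosines 75.9 kb before Meg3 averaged 54.8% in fasted and 66.7% in control liver. More methylated clusters followed, with 5 cytosines 70.9 kb before Meg3 at 80.7% in fasted and 72.5% in control liver. The next, 7 cytosines at 69.4 kb, averaged 86.8% in fasted and 88.3% in control liver, and 10 cytosines at 68.3 kb averaged 85.0% in fasted and 82.4% in control liver. The first intermediate cluster past them, 5 cytosines at 67.2 kb, averaged 36.0% in fasted and 60.0% in control liver, a difference of -24.0 points (interval -45.1 to -2.95). The window holding these 5 cytosines was not called (Fisher's exact test, adjusted p = 0.645). This cluster holds the member with the largest decrease, on the minus strand at position 109473844, with 0 of 5 methylated reads in fasted and 7 of 9 in control liver.

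Further toward Meg3, clusters at 59.4, 52.7 and 47.6 kb were highly methylated. They averaged 85.2%, 85.7% and 86.6% in fasted liver and 100%, 84.4% and 87.9% in control liver. A change to lower levels came at 44.7 kb, where 11 cytosines averaged 47.3% in fasted and 45% in control liver. The intermediate clusters at 40.6, 35.3 and 31.9 kb averaged 55.2%, 58.1% and 46.4% in fasted liver and 52.0%, 61.8% and 37.5% in control liver. Between these, 3 cytosines at 42.4 kb averaged 70.5% in fasted and 96.1% in control liver, and 4 at 41.3 kb averaged 78.3% in fasted and 72.5% in control liver. From 44.7 to 31.9 kb before Meg3, 4 of the 6 clusters were thus intermediate in both libraries by their means. Few of their cytosines were at 30 to 70% in both libraries. They were 1 of 11 at 44.7 kb, 2 of 6 at 40.6 kb, 0 of 8 at 35.3 kb and 0 of 3 at 31.9 kb. At 44.7 kb 4 cytosines were at 10% or less in both libraries and 2 at 80% or more. At 35.3 kb these counts were 2 and 3. The lowest cluster of the stretch, 5 cytosines at 28.2 kb, averaged 5.00% in fasted and 2% in control liver. A cluster of 3 at 20.1 kb averaged 81.2% in fasted and 73.3% in control liver. Clusters of 4 at 15.3 kb, 8 at 14.3 kb and 3 at 11.2 kb averaged 30.7%, 85.8% and 97.8% in fasted liver and 23.6%, 92.0% and 91.4% in control liver. No member lay in the 10077 bp from 11078 to 1001 bp before Meg3. The annotated long noncoding RNA gene Gm34081 covers the Meg3 side of the stretch, where 74 cytosines averaged 62.3% in each library, and the 41 cytosines before it averaged 76.5% in fasted and 80.1% in control liver.

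**Figure D4:**
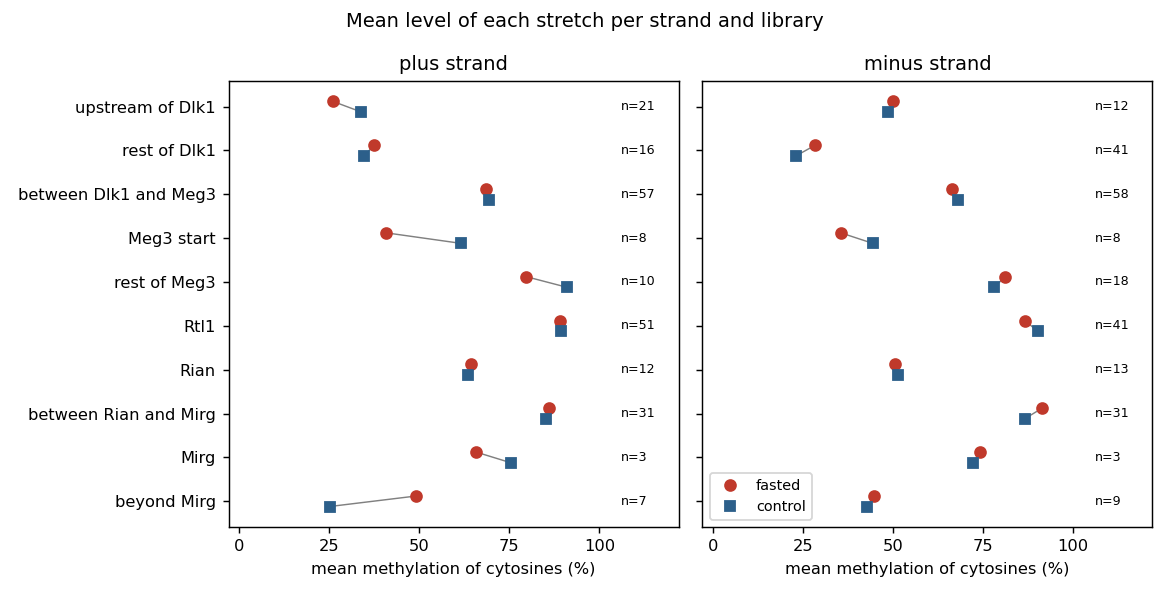
Mean methylation level (percent, horizontal axis) of each stretch of the domain on the plus and minus strands, fasted and control libraries joined by a line, with the number of cytosines at the right. The Meg3 start lies at 40.8% in fasted and 61.6% in control liver on the plus strand, while the stretch between Dlk1 and Meg3 lies at 68.4% in fasted and 69.4% in control liver.

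Dlk1, a transmembrane protein related to Notch ligands, had a nearly unmethylated first cluster and a methylated one toward its end. The window from 1000 bp before to 500 bp after its annotated start held no member. The remaining 57 cytosines of the gene averaged 30.9% in fasted and 26.3% in control liver, a difference of 4.57 points (interval 1.12 to 8.01), which was -0.23 points with at least 10 reads. On the plus strand the 16 cytosines averaged 37.4% in fasted and 34.7% in control liver, and on the minus strand the 41 cytosines averaged 28.3% in fasted and 23.1% in control liver. The first cluster, 33 cytosines at chr12:109453400-109453968, averaged 0.365% in fasted and 2.01% in control liver. The later cluster, 20 cytosines at chr12:109459831-109460458, averaged 73.9% in fasted and 62.3% in control liver, with 15 higher and 4 lower in fasted liver. Its difference was 11.6 points (interval 4.49 to 18.7), and the window holding its first part was not called (Fisher's exact test, adjusted p = 0.268). The member of the domain with the largest increase also lay in Dlk1, on the minus strand at position 109458513, with 11 of 14 methylated reads in fasted and 1 of 5 in control liver.

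The called window of the domain lay upstream of Dlk1 (chr12:109446001-109447000). Its 6 cytosines, 6342 to 6154 bp before the gene, averaged 8.20% in fasted and 36.9% in control liver, a difference of -28.7 points (interval -40.3 to -17.2; Fisher's exact test, adjusted p = 0.00114). Summed over them, 8 of 100 reads were methylated in fasted and 25 of 67 in control liver. The plus strand carried 5 of the 6 cytosines. At position 109446249, 2 of 16 reads were methylated in fasted and 9 of 11 in control liver, and at 109446241, 2 of 16 in fasted and 7 of 11 in control liver. The smallest unadjusted p of the domain was at position 109446249 (0.000855, adjusted p = 0.518, Fisher's exact test). At position 109446330 on the plus strand the direction was the other way, with 1 of 13 in fasted and 0 of 7 in control liver. The window was no longer called when every read count was halved (adjusted p = 0.470, Fisher's exact test) or summed reads were divided by how many cytosines they covered (adjusted p = 1). Other clusters upstream of Dlk1 were 4 cytosines at 51.6% in fasted and 57.7% in control liver, and 14 nearly unmethylated ones at 2.87% in fasted and 2.94% in control liver. A cluster of 6 averaged 98.7% in fasted and 87.2% in control liver, a difference of 11.6 points (interval 0.896 to 22.2). The window holding this cluster was not called (Fisher's exact test, adjusted p = 0.324). All 33 cytosines upstream of Dlk1 averaged 34.6% in fasted and 39.1% in control liver, and the 27 outside the called window 40.5% in fasted and 39.6% in control liver. Over all 33, with the called window included, the plus strand averaged 25.9% in fasted and 33.7% in control liver. The minus strand averaged 49.9% in fasted and 48.6% in control liver.

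Beyond its start, Meg3 was highly methylated. Its remaining 28 cytosines averaged 80.6% in fasted and 82.6% in control liver, with 79.7% in fasted and 90.9% in control liver on the plus strand, and 81.1% in fasted and 78.0% in control liver on the minus strand. Rtl1, a gene derived from a retrotransposon and needed in the placenta, had the highest mean level among the 5 genes in both libraries. Its 92 cytosines averaged 88.0% in fasted and 89.7% in control liver, a difference of -1.77 points (interval -4.76 to 1.23), and 64 of them were at 80% or more in both libraries. Rtl1 on the plus strand averaged 89.1% in fasted and 89.4% in control liver, and on the minus strand 86.6% in fasted and 90.1% in control liver. No member lay where the annotated Rtl1 overlaps Meg3 or Rian.

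Rian, a host RNA of small nucleolar RNAs, averaged 57.1% in each library over 25 cytosines. With each read weighing the same, the level was 64.7% in fasted and 54.5% in control liver, a difference of 10.2 points, so the equal means rest on weighting cytosines alike. Rian on the plus strand averaged 64.3% in fasted and 63.4% in control liver, and on the minus strand 50.5% in fasted and 51.2% in control liver. Within Rian, 6 cytosines averaged 36.1% in fasted and 51.0% in control liver, 4 averaged 34.4% in fasted and 26.0% in control liver, and 7 averaged 55% in fasted and 51.7% in control liver. A further 3 averaged 94.2% in fasted and 97.0% in control liver. For the clusters of 6, 4 and 7 cytosines the differences were -14.9 points (interval -33.3 to 3.48), 8.36 (-8.55 to 25.3) and 3.30 (-10.6 to 17.2). Each of these intervals included 0. Each cytosine of the cluster of 6 had only 6 fasted and 16 control reads. The mean differences of the Rian clusters thus lay in both directions, without a clear difference in these. Between Rian and Mirg, 62 cytosines averaged 88.6% in fasted and 85.8% in control liver, a difference of 2.79 points (interval -1.14 to 6.72). On the plus strand this stretch averaged 85.9% in fasted and 85.1% in control liver, and on the minus strand 91.3% in fasted and 86.5% in control liver. Mirg, a host RNA of microRNAs, had 6 members that averaged 69.9% in fasted and 73.8% in control liver.

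The RefSeq promoter of Mirg (GRCm38.p6, chr12:109734731-109735030, plus strand) is shown because its measured CpGs, in capitals, were highly methylated where those of Meg3 were intermediate.
Mirg promoter: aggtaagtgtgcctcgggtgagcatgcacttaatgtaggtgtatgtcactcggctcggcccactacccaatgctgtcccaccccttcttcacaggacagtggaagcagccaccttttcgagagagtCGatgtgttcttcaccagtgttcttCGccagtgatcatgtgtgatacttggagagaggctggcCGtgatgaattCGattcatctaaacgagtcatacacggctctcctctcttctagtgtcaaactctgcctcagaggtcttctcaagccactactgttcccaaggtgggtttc
Its 6 measured cytosines averaged 99% in fasted and 86.9% in control liver, a difference of 12.1 points (interval -1.95 to 26.1), and the lowest in control liver was at 66.7%. It holds 10 CG pairs, and 43.5% of promoters in the table hold as many or more.

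Just past the end of Mirg lay a cluster that was higher in fasted liver. Its 12 cytosines, 226 to 482 bp beyond the gene (chr12:109749684-109749940), averaged 35.6% in fasted and 16.1% in control liver, a difference of 19.5 points (interval 10.2 to 28.8). Summed over them, 69 of 238 reads were methylated in fasted and 39 of 222 in control liver, so the libraries lay closer when each read weighed the same. All 6 plus strand cytosines were higher in fasted liver, among them position 109749920 with 8 of 24 methylated reads in fasted and 2 of 30 in control liver. On the minus strand 3 were higher and 3 lower, and the deepest, at position 109749921, had 8 of 50 methylated reads in fasted and 14 of 51 in control liver. The strands of that CpG moved in opposite directions. The nearby CpG at position 109749926 had 12 fasted and 15 control plus strand reads, and 25 in each library on the minus strand. Whether fragments were counted repeatedly at the deeper CpG was not tested. The window was not called (Fisher's exact test, adjusted p = 0.126). All 16 cytosines beyond Mirg averaged 46.7% in fasted and 35.0% in control liver, with 49.1% in fasted and 25.1% in control liver on the plus strand, and 44.8% in fasted and 42.7% in control liver on the minus strand. With each read weighing the same, the 16 cytosines were at 37.5% in fasted and 27.9% in control liver, a difference of 9.59 points. With at least 20 reads the 4 cytosines left averaged 18.3% in fasted and 19.3% in control liver.

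**Figure D5:**
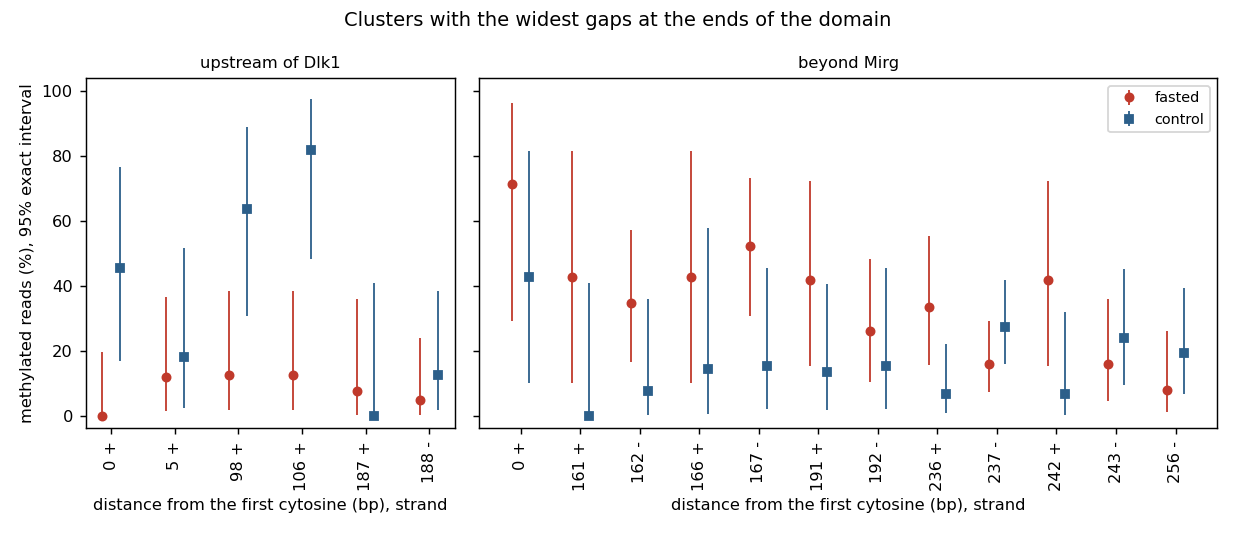
Methylation level (percent, vertical axis) of each cytosine in the called window upstream of Dlk1 and in the cluster beyond Mirg, by distance from the first cytosine (bp, horizontal axis) and strand, with exact 95% intervals, fasted and control libraries. The window averaged 8.20% in fasted and 36.9% in control liver, and the cluster 35.6% in fasted and 16.1% in control liver.

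RefSeq annotates 60 microRNA genes in the domain, and its sequence table gives a hairpin for 57 of them, 28 between Rian and Mirg and 15 in Rtl1. Measured cytosines lay in 7 of these hairpins, 32 in all. Mature arms holding a measured CpG are shown because they place these methylated CpGs inside the microRNA genes, with the seed (bases 2 to 8) in capitals.
mmu-miR-433-5p: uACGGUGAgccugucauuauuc
mmu-miR-433-3p: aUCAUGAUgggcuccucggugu
mmu-miR-434-5p: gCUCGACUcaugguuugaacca
mmu-miR-323-5p: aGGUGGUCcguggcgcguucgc
mmu-miR-323-3p: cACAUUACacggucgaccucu
mmu-miR-495-5p: gAAGUUGCccauguuauuuuucg
No seed is shared among these 6 arms. Mir433 had 7 cytosines that averaged 93.9% in fasted and 92.6% in control liver, Mir323 had 7 at 97.6% in fasted and 91.8% in control liver, and Mir434 had 3 at 96.3% in fasted and 93.3% in control liver. The lowest hairpin in fasted liver, Mir300, averaged 80.8% in fasted and 82.0% in control liver over 5 cytosines. Mir495, with 4 cytosines, averaged 89.2% in fasted and 82.5% in control liver. All 7 hairpins were therefore above 80% in both libraries.

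Differences of at least 25 points, counted with no test, were found at 64 members (14.2%), 32 higher and 32 lower in fasted liver, where the background was 7.41% of autosomal cytosines (3.82% higher and 3.59% lower). The domain had a lower median depth and a smaller share of cytosines near 0 than the autosomes, as given above, and their part in this count was not tested. After the decrease at 109473844, the largest were those at 109446249 and at 109498553 on the plus strand, with 2 of 5 methylated reads in fasted and 5 of 5 in control liver. After the increase at 109458513, the largest were at 109679801 on the plus strand, with 12 of 12 in fasted and 4 of 9 in control liver, and at 109496565 on the plus strand, with 16 of 20 in fasted and 3 of 10 in control liver.

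Both strands of a CpG read separate molecules of the same site, and 113 CpGs of the domain had both strands in both libraries. The median gap between strands was 7.86 points in the fasted and 8.24 points in the control library, against 2.22 points in the fasted and 1.96 points in the control library over the autosomes. Gaps of at least 25 points were found at 8 of the 113 CpGs in fasted and 11 of the 113 in control liver, where the background was 4.77% of autosomal CpGs in fasted and 5.41% in control liver. The part of the domain's lower depth and smaller share of cytosines near 0 in these gaps was not tested. Fisher's exact test, adjusted by Benjamini-Hochberg, called no gap in either library, with a background of 0.0471% in fasted and 0.0498% in control liver. At an unadjusted p under 0.05 there were 2 such CpGs (1.77%) in fasted and 4 (3.54%) in control liver, against 1.73% of autosomal CpGs in fasted and 1.71% in control liver. Between the libraries, both strands moved in the same direction at 36 CpGs and in opposite directions at 28, and at 49 at least 1 strand was equal. Over the autosomes these counts were 159366, 143769 and 469870 of 773005 CpGs, so the same direction was also the more frequent of the 2 there.

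Windows with a mean of 30 to 70% in both libraries made up 13 of the 56 windows of the domain (23.2%), where the background was 12.1% of autosomal windows. The starts of other imprinted genes were measured over the same kind of window. Of 20 such genes 18 had at least 3 cytosines, with the window placed by strand for 13 of the 18 and at the gene end with more cytosines for the others. Among the 18, 9 averaged 30 to 70% in both libraries. Peg3 averaged 44.8% in fasted and 37.2% in control liver, Nnat 47.1% in fasted and 53.0% in control liver, and Airn 38.8% in fasted and 38.1% in control liver. The differences among these genes ran from -6.68 points at Gnas to 16.6 points at Impact, with a median size of 4.74 points. The difference of -14.8 points at Meg3 was below all 18, and 2 of them, Impact and Mest, were at least 10 points higher in fasted liver. Ube3a, Impact, Phlda2, Inpp5f and Grb10 were at 0.296 to 5.99% in control liver. These could not have fallen by 14.8 points, so the ranking says nothing for them. The Impact window was among those placed at the gene end with more cytosines. Meg3 had 16 cytosines, and the 18 genes had from 12 at Impact to 176 at Cdkn1c, so small windows weigh on both extremes. These values have no test.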

How the data were processed

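Per the labels' protocols, liver DNA was cut with TaqαI and MspI, size selected, bisulfite converted, amplified and sequenced. Bismark 0.14.3, bcl2fastq 1.8.4 and mm10 are named by the submitters' processing notes. For alignment settings, duplicates and overlapping mates, the handling was not given in the sources used here. The depth of some cytosines was an exact multiple of a neighbour's in both libraries. At position 109459855 the plus strand had 32 fasted and 38 control reads, beside 16 and 19 at 109459844. Whether fragments were counted repeatedly at such cytosines was not tested, so a minimum of 20 reads may favour them. The deposited files list CpG cytosines by strand with methylated and total read counts as text, and a score that the authors set to 1000 times the methylated fraction. The largest deviation of that score from the counts was 0.5.

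Levels came from the read counts. The minimum of 5 reads, windows, clusters and tests are as stated with the results, on 19 autosomes (python 3.11.15, numpy 2.4.6, scipy 1.17.1, numba 0.67.0). Intervals of levels are exact Clopper-Pearson intervals at 95%. For mean differences, reads were treated as independent, with 0.5 methylated reads of 1 added for the variance. Neighbouring cytosines share reads, so p-values of windows are too small and intervals of mean differences too narrow. Both tests were tested on simulated data with 200 known changes over the autosomes, with reads drawn independently at each cytosine. The test of single cytosines recovered 4% of changes of 50 points and 66.5% of changes of 100 points. The test of windows recovered 83% of changes of 50 points and 100% of changes of 100 points. Genes and promoters came from RefSeq tables of GRCm38.p6, and 259515 of 259515 listed cytosines in its promoters had a C on the listed strand. The annotated Meg3, Rtl1 and Rian overlap, so the planned stretches between them were replaced by overlaps. The genes named are the 5 of the domain, every stretch, every cluster of at least 3 cytosines between Dlk1 and Meg3 and at the Meg3 start, the highest, the lowest and the intermediate clusters elsewhere, called windows, the 3 cytosines with the largest change each way and examples of other imprinted genes. The members and lists were chosen with earlier results of these data known. Exons and introns were not analysed here.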

Additional observations from a re-analysis of the deposited data

How the results depend on the processing

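Cytosine calls were 0 under every alternative run (at least 10 or 20 reads, halved counts, merged strands, all chromosomes, a 10 point threshold), and strand calls were 0 with at least 10 reads. The 1 called window became 0 with at least 20 reads, 0 with every read count halved, 0 with reads divided by how many cytosines they covered, and 2 with windows moved by 500 bp. Chosen after seeing the data, the moved windows gave 0 when counts were also halved and 0 when reads were also divided. The cause was not tested, except that at least 20 reads left 9 windows. Windows at an intermediate level were 13, against 4 at 40 to 60% (autosomes 3.91%) and 8 of 37 with at least 10 reads (autosomes 11.5%). The Meg3 start difference was -16.5 to -11.3 points over all alternatives, including -12.1 without the cytosines 200 to 500 bp upstream, chosen after seeing the data, and the stretch between Dlk1 and Meg3 was -2.45 to -0.20 points. Upstream of Dlk1 the difference was -9.89 with at least 10 reads and 2.07 with at least 20. Rian moved to 10.2 points with each read weighing the same and 5.54 with at least 10 reads. In the range of 20 to 80% and at least 10 reads, both counts were even at 38.2% of fasted and 37.2% of control members, against 33.1% in the fasted and 33.7% in the control library over the autosomes. No paired analysis was possible because each group had 1 library, and for the same reason no replicate could be left out.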

Other observations

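Within clusters that averaged at least 10% in both libraries, 11 cytosines had no methylated read in either library, with 192 fasted and 207 control reads over them in all. They belonged to 7 CpGs in 6 clusters, 4 CpGs had both strands at 0, and 10 of the 11 lay between Dlk1 and Meg3. The CpG at position 109525755 had 0 of 23 plus strand reads in fasted and 0 of 42 in control liver, and on its minus strand 0 of 22 in fasted and 0 of 34 in control liver. CD-1 mice are outbred, and whether these mice carried a CG pair at these positions was not tested.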
